A study of Mus musculus with 7 samples.

Results

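The adaptors and kinases that act below the pre-B-cell receptor were followed in B-cell precursor (BCP) cells of Eμ-Ret mice. The 6 genes were taken by name, for their place in the pathway, from the 24341 genes of the deposited expression table. They are Blnk, Syk, Btk, Plcg2, Pik3ap1 and Pik3cd. The Src-family kinases, which act one step above, were left out.

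The pre-B-cell receptor (pre-BCR) pairs an immunoglobulin heavy chain with the surrogate light chain proteins encoded by Igll1 and the Vpreb genes, and it signals through Cd79a and Cd79b. Phosphorylated Cd79a and Cd79b recruit the tyrosine kinase SYK, which phosphorylates the scaffold BLNK. On BLNK, the kinase BTK meets the phospholipase PLCγ2, which releases calcium and diacylglycerol. In parallel, the adaptor BCAP, encoded by Pik3ap1, recruits phosphoinositide 3-kinase (PI3K), whose leukocyte catalytic subunit p110δ is encoded by Pik3cd. Pre-BCR signals drive expansion of precursor B cells and their later exit from the cell cycle, and the pathway is used or bypassed to different degrees among B-cell leukemias.

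RNA was sequenced from BCP cells of the spleen. All 7 samples were of Eμ-Ret hemizygotes on a BALB/c background, so that both groups carried the transgene, a Ret fusion driven by the IgH enhancer, and no transgene-negative cells were among the samples. Preleukemic BCP cells came from young, healthy mice (n = 4) and leukemic BCP cells from older mice that had become moribund (n = 3), and per the labels both were obtained by flow sorting. Disease state and age of the mice therefore cannot be told apart. For its in vitro experiments, the paper describes enriched preleukemic cells, and leukemic spleen cells that mostly were not enriched. A difference in preparation between the groups, if there was one here, could not be told apart from disease state either.

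Levels are given as FPKM (fragments per kilobase of transcript, scaled to library size), a value per transcript length that allows levels to be set side by side between genes. The libraries were of similar depth, at about 13600000 to 16100000 fragments as read from the steps between low values. The least covered value of the 6 genes, that of Syk in leukemic sample 1, rested on about 1137 fragments, for a counting error of 2.97%. Differences are log2 fold changes on the log2(FPKM + 1) scale, leukemic minus preleukemic, each tested with limma and adjusted over all 10541 genes that passed a filter on low values. All 6 genes passed this filter, with mean levels above those of at least 91.3% of the genes tested.

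The summed level of 16 precursor B-cell markers was 4119 to 6546 FPKM in the leukemic samples and 8019 to 10122 FPKM in the preleukemic samples. Of the 16, 10 were lower in every leukemic sample. Estimates were below 0 for 15, and Cd24a had the higher leukemic mean (582 against 412 FPKM). The list includes Cd79a, Cd79b, Igll1, Vpreb1 and Vpreb3, which are also given below as receptor chains, so the sum is not separate from them. The summed level of 12 red cell precursor markers was 5080 to 25341 FPKM in leukemic against 186 to 2448 FPKM in preleukemic samples, and 11 of the 12 were higher in every leukemic sample (Hbb-bs was at the table's floor of 0.01 in all samples). Macrophage markers summed to 166 to 368 against 37.6 to 89.4 FPKM (13 of 15 higher in every leukemic sample), neutrophil markers to 1467 to 1830 against 154 to 895 FPKM (12 of 14), platelet markers to 14.5 to 53.9 against 2.54 to 4.00 FPKM (5 of 7), and dendritic cell markers to 5.51 to 8.68 against 0.751 to 2.06 FPKM (4 of 7). T and NK cell markers summed to 14.7 to 79.3 against 15.05 to 21.5 FPKM (3 of 12), mature B-cell markers to 119 to 191 against 121 to 188 FPKM (1 of 6), and plasma cell markers to 365 to 893 against 709 to 937 FPKM (1 of 5). Leukemic sample 2 held the highest red cell and macrophage sums. The part of these markers in the differences below was not tested, and in such bulk samples fewer cells of a type and less RNA per cell cannot be told apart.

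**Figure D1:**
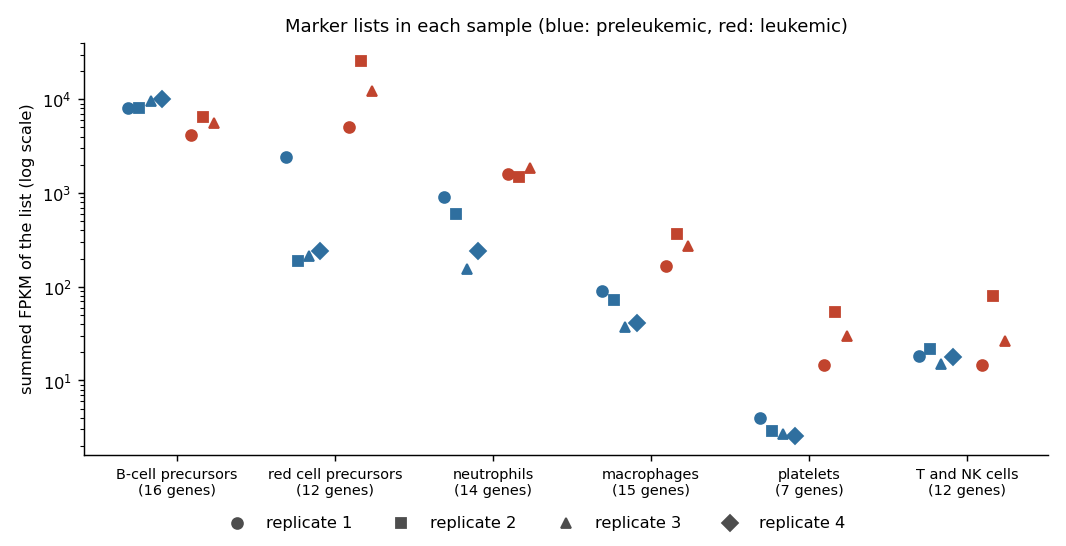
Summed FPKM of 6 marker lists (y axis, log scale) in each preleukemic (blue, n = 4) and leukemic (red, n = 3) sample; the symbol gives the replicate number. The precursor B-cell sum was lower in every leukemic sample, at 4119 to 6546 against 8019 to 10122 FPKM, while the red cell sum was higher, at 5080 to 25341 against 186 to 2448 FPKM.

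The promoters of Blnk, Syk and Pik3cd are shown because these 3 genes had the largest differences between the groups. Each runs 5′ to 3′ on the strand of the gene, from 250 bases before a RefSeq start site to 50 bases after it (300 bases, build GRCm38.p6). Capitals mark matches, among 4 motifs that were searched on both strands and do not overlap here, namely the octamer bound by POU factors (ATTTGCAT), the E-box bound by E2A (CAGGTG), the PU.1 core (GAGGAA) and a palindromic EBF1 motif. Blnk lies at chr19:40994172-40994471 on the minus strand. Syk lies at chr13:52583187-52583486 on the plus strand, and is the first of its 2 listed promoters. Its start site is that of the deposited locus. Pik3cd lies at chr4:149698659-149698958 on the minus strand, and is the first of its 3 listed promoters. The start sites used for Blnk and Pik3cd are not those of the deposited loci, and both stretches lie inside those loci.
Blnk: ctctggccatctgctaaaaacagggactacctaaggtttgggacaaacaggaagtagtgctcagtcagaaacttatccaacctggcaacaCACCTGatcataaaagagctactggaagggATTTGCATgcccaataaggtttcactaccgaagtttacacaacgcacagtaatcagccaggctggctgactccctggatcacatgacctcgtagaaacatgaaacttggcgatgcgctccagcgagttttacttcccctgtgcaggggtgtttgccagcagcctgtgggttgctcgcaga
Syk: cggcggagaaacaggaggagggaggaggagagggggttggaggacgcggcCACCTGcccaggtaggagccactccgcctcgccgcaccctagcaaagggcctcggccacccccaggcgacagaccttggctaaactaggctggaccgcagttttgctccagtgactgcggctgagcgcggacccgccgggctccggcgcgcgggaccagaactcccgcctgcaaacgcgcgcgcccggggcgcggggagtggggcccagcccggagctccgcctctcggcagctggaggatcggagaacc
Pik3cd: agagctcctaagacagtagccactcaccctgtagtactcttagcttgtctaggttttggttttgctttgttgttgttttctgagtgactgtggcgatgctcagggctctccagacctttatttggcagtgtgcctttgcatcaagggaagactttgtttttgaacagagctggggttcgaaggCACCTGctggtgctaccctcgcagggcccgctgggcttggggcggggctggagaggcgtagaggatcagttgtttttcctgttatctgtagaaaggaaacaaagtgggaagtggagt

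The Blnk promoter held an octamer 130 bases before the RefSeq start site and an E-box, on the opposite strand, 160 bases before it. The octamer was found in none of the other 8 promoters listed for the 6 genes and in 1.74% of the 32851 promoters of this length. The E-box was found in 7 of the 9 promoters and 5 of the 6 genes (not Btk), against 20.2% of all promoters. The PU.1 core was in 3 of 9, one each for Syk, Btk and Pik3ap1, against 28.3%. For Syk it was in the other listed promoter, which is not shown. The EBF1 motif was in none of the 9, against 0.904%. A match of letters is a description of the sequence and was not tested for binding.

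Blnk (chr19:40928927-40994535), the scaffold, was the most highly expressed of the 6 genes in 6 of 7 samples. Its levels were 165, 179 and 139 FPKM in leukemic samples 1 to 3 and 218, 173, 275 and 283 FPKM in preleukemic samples 1 to 4. Leukemic sample 2 stood above preleukemic sample 2, so the groups overlapped, and the other leukemic samples were below every preleukemic one. The mean was 161 ± 20.4 (SD, n = 3) against 237 ± 51.8 FPKM (SD, n = 4), for a log2 fold change of -0.54 (SE 0.19, 95% interval -0.97 to -0.10), which did not pass limma's adjusted threshold of 0.05 (adjusted p = 0.0924).

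Syk (chr13:52583437-52648792), the kinase at the receptor, measured 32.1, 65.6 and 92.1 FPKM in the leukemic samples and 90.5, 112, 119 and 137 FPKM in the preleukemic samples. Leukemic sample 3 was just above the lowest preleukemic sample, whereas leukemic samples 1 and 2 were below all preleukemic samples. The mean was 63.2 ± 30.1 (SD, n = 3) against 114 ± 19.1 FPKM (SD, n = 4), with a log2 fold change of -0.95 (SE 0.33, 95% interval -1.73 to -0.18, limma adjusted p = 0.0924).

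Btk (chrX:134542341-134583140), the Tec-family kinase, varied least among the leukemic samples. It measured 112, 105.1 and 122 FPKM in leukemic and 118, 128, 126 and 128 FPKM in preleukemic samples. Leukemic sample 3 was above preleukemic sample 1, and the other leukemic samples were below all preleukemic ones. The log2 fold change was -0.15 (SE 0.08, 95% interval -0.33 to 0.03, limma adjusted p = 0.214), for means of 113 ± 8.28 (SD, n = 3) and 125 ± 4.76 FPKM (SD, n = 4). Btk is X-linked, and Y-linked genes were detected in leukemic samples 1 and 3 and in preleukemic sample 4, with Xist near the table's floor there. The highest Btk value of each group was in a sample of this kind, and the ranges of both kinds overlapped.

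Plcg2 (chr8:117498291-117635142), the phospholipase that BTK activates, measured 97.1, 72.6 and 112 FPKM in leukemic and 94.7, 95.3, 101 and 102 FPKM in preleukemic samples. The leukemic samples held both the lowest and the highest value. The log2 fold change was -0.08 (SE 0.14, 95% interval -0.42 to 0.25, limma adjusted p = 0.702), and without leukemic sample 2 it was 0.09.

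Pik3ap1 (chr19:41274218-41385070), which encodes BCAP, measured 119, 54.7 and 101 FPKM in leukemic and 110, 92.4, 127 and 136 FPKM in preleukemic samples. Leukemic samples 1 and 3 were inside the preleukemic range and leukemic sample 2 was well below it. The log2 fold change was -0.40 (SE 0.27, 95% interval -1.03 to 0.22, limma adjusted p = 0.314), and it was -0.08 without leukemic sample 2.

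Pik3cd (chr4:149649168-149701629), the p110δ gene, had the largest difference of the 6. It measured 43.2, 116 and 70.8 FPKM in leukemic and 130, 187, 134 and 150 FPKM in preleukemic samples. Every leukemic sample was below every preleukemic sample, which held for Pik3cd alone among the 6 genes. The mean was 76.5 ± 36.5 (SD, n = 3) against 150 ± 26.1 FPKM (SD, n = 4), for a log2 fold change of -1.06 (SE 0.31, 95% interval -1.78 to -0.34, limma adjusted p = 0.0577). Leaving out leukemic sample 2 gave -1.41 with a limma adjusted p of 0.0166, and leaving out leukemic sample 3 brought Syk to -1.28 with 0.0436. Without leukemic sample 1 both were smaller, at -0.71 (limma adjusted p = 0.0832) for Pik3cd and -0.54 (0.115) for Syk.

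**Figure D2:**
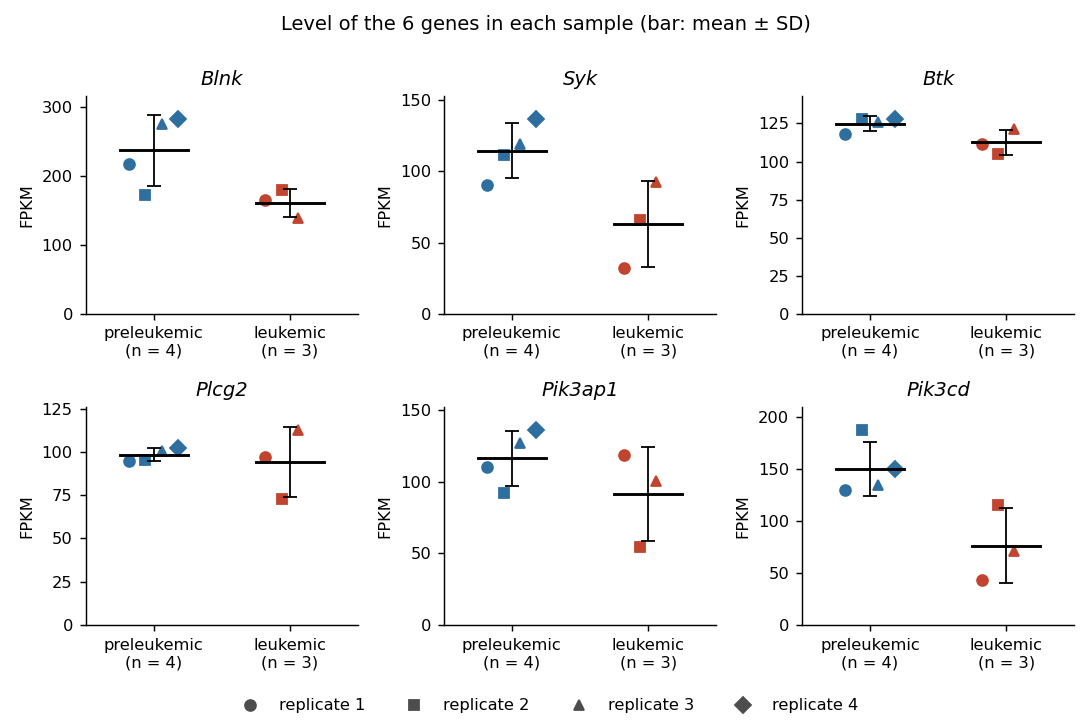
FPKM (y axis, from 0) of each gene in each sample, by group, with the mean and SD as bars and the replicate number as the symbol. Only Pik3cd showed no overlap between the groups, while Plcg2 held its lowest (72.6) and highest (112) values in leukemic samples.

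None of the 6 genes passed the adjusted threshold (0 of 6), where 14.7% of all genes tested did, 6.26% as lower and 8.47% as higher in leukemic samples. At an unadjusted p under 0.05, limma named 3 of the 6 (Blnk, Syk and Pik3cd, all lower), against 34.0% of all genes and 17.5% as lower. All 6 estimates were below 0, against 52.1% over all genes, and their median was -0.47 against -0.02. The 6 genes were chosen with earlier results of these data known, so this comparison is a description and not a test. Groups that did not overlap were seen for 1 of 6, against 32.0% of all genes and 17.1% as lower.

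The calls depended on the scaling between samples. With quantile normalization, Blnk (-0.66, limma adjusted p = 0.0381) and Pik3cd (-1.13, 0.0439) passed the threshold as lower, with 15.8% of all genes called, 8.60% lower and 7.15% higher. With FPKM sums made equal after leaving out the markers of other cell types, the median over all genes moved to -0.13 and 23.6% were called, 16.7% lower and 6.84% higher, among them Blnk (-0.66, limma adjusted p = 0.0306) and Pik3cd (-1.19, 0.0324). The share of all called genes that were lower was 42.5% as deposited, 54.6% with quantile normalization, 37.6% with median-ratio scaling and 71.0% with equal sums.

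**Figure D3:**
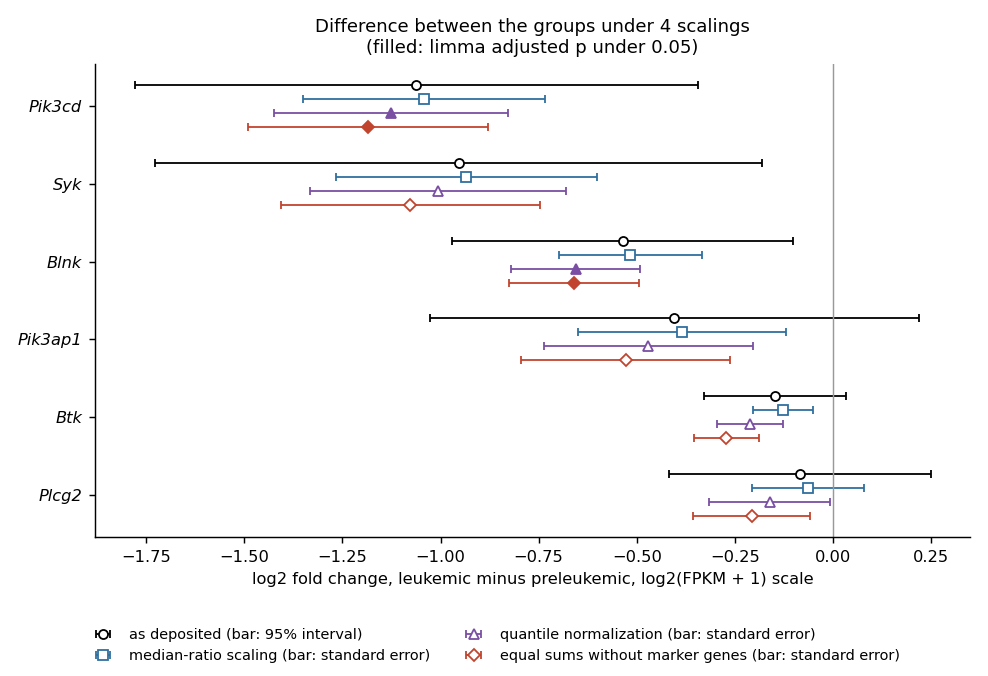
Log2 fold change of each gene (x axis, leukemic minus preleukemic, log2(FPKM + 1) scale) as deposited with its 95% interval, and under 3 other scalings with the standard error. Filled symbols passed limma's adjusted threshold of 0.05, which were Blnk and Pik3cd with quantile normalization and with equal sums.

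Leukemic samples differed from one another in which gene was low. Sample 1 held the lowest Syk (32.1 FPKM) and Pik3cd (43.2 FPKM) of all 7 samples, with Pik3ap1 and Plcg2 within their preleukemic ranges. Sample 2 held the lowest Btk, Plcg2 and Pik3ap1 and the highest leukemic Blnk and Pik3cd. Sample 3 held the lowest Blnk (139 FPKM) and the highest leukemic Syk, Btk and Plcg2. All 6 genes therefore had their lowest value in a leukemic sample, but no leukemic sample was lowest for all of them.

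The spread among samples was larger in the leukemic group for 5 of the 6 genes. The SD of log2(FPKM + 1) was 0.762 against 0.245 for Syk, 0.700 against 0.236 for Pik3cd, 0.581 against 0.246 for Pik3ap1, 0.318 against 0.0552 for Plcg2 and 0.104 against 0.0555 for Btk. Blnk was the exception, at 0.186 against 0.330. The median over 7069 genes with a mean of at least 10 FPKM was 0.186 against 0.115, so that the median gene was also more variable in the leukemic group. Among preleukemic samples, sample 2 held the lowest Blnk and Pik3ap1 and the highest Pik3cd, and it was the only one of the 7 samples in which Pik3cd exceeded Blnk.

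Each gene was next set against its closest relatives, as its share of the summed FPKM of the family, a value that a single scaling factor per sample leaves as it is. Blnk made up 93.1% ± 3.98 (SD, n = 3) of its family with Lcp2 and Clnk in the leukemic group, against 89.2% ± 1.51 (SD, n = 4) in the preleukemic group. Lcp2, which encodes the T-cell scaffold SLP-76, measured 3.90, 18.2 and 13.9 FPKM in leukemic and 32.1, 17.7, 33.8 and 31.9 FPKM in preleukemic samples (log2 fold change -1.37, SE 0.47, limma adjusted p = 0.0888), with -0.78 when leukemic sample 1 and -1.76 (0.0495) when leukemic sample 2 was left out. Plcg2 made up 68.5% ± 1.89 (SD, n = 3) of its sum with Plcg1 against 62.7% ± 1.49 (SD, n = 4). Plcg1, the phospholipase used in T cells, measured 47.9, 34.1 and 46.8 FPKM in leukemic against 54.3, 62.2, 57.4 and 59.6 FPKM in preleukemic samples (-0.45, SE 0.13, limma adjusted p = 0.0569), with -0.29 without leukemic sample 2 and -0.53 (0.0464) without leukemic sample 1. Btk made up 87.0% ± 3.95 (SD, n = 3) of the Tec-family sum against 83.3% ± 0.862 (SD, n = 4), with Tec at -0.62 (SE 0.24, limma adjusted p = 0.115), and at -0.32 without leukemic sample 1 or -0.87 (0.0442) without leukemic sample 3.

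For these 3 genes the share was higher in every leukemic sample than in every preleukemic one. The exact two-sided permutation test gave p = 0.0286 for each, the smallest that 3 against 4 samples allow, and 0.0571 after adjustment over the 6 families, so that none passed. For Blnk and Btk the nearest samples of both groups differed by far less than 1 percentage point (90.7% in both for Blnk, 84.2% in both for Btk), while for Plcg2 they were 67.0% and 63.7%. Without leukemic sample 1 the difference in mean share fell from 3.89 to 1.597 percentage points for Blnk and from 3.71 to 1.45 for Btk. With quantile normalization the Blnk groups overlapped (3.46 percentage points, exact permutation p = 0.114), and those of Btk and Plcg2 did not (3.33 and 5.29).

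The shares of the other 3 genes overlapped between the groups. Without leukemic sample 2 the difference in mean share went from -7.41 to -1.94 percentage points for Syk, from -2.88 to 3.05 for Pik3ap1 and from -9.09 to -13.7 for Pik3cd. Syk made up 65.7% ± 9.67 (SD, n = 3) of its sum with Zap70 in the leukemic group, against 73.2% ± 7.87 (SD, n = 4) in the preleukemic group (exact permutation p = 0.314). Zap70, the T-cell relative of Syk, measured 11.8, 54.1 and 40.7 FPKM against 28.7, 24.3, 68.4 and 55.5 FPKM, a wide spread within both groups (log2 fold change -0.42, SE 0.56, limma adjusted p = 0.620, and 0.21 without leukemic sample 1). Pik3ap1 made up 64.1% ± 10.3 (SD, n = 3) of its sum with the adaptor gene Bank1 against 67.0% ± 2.96 (SD, n = 4; exact permutation p = 0.743), with Bank1 at -0.24 (SE 0.14, limma adjusted p = 0.263). Pik3cd made up 62.2% ± 7.91 (SD, n = 3) of the class I catalytic subunit genes against 71.3% ± 5.46 (SD, n = 4; exact permutation p = 0.200). In that family Pik3ca passed the threshold as lower (12.2 ± 0.379 against 16.6 ± 0.889 FPKM, log2 fold change -0.42, SE 0.08, limma adjusted p = 0.0179), and Pik3cg did not (-0.56, SE 0.25, limma adjusted p = 0.161, and -0.28 without leukemic sample 1).

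**Figure D4:**
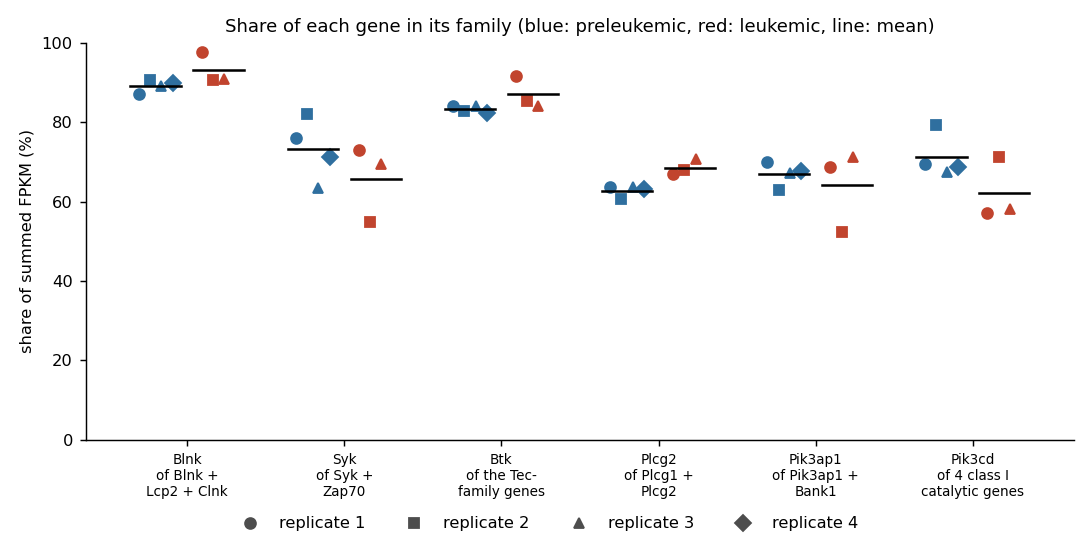
Share of each gene in the summed FPKM of its family (y axis, percent) in preleukemic (blue, n = 4) and leukemic (red, n = 3) samples, with the group mean as a line. The Plcg2 share was 67.0% to 70.6% in leukemic and 60.5% to 63.7% in preleukemic samples.

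Ratios between the 6 genes within a sample were compared over all 15 pairs, of which 0 passed after adjustment. The log2 ratio of Syk to Btk was lower by 0.82 and that of Syk to Plcg2 by 0.88 on average in leukemic samples, with no overlap between the groups (exact permutation p = 0.0286 for each, adjusted p = 0.214). Without leukemic sample 1 the differences were -0.40 and -0.42. The closest profiles over the 7 samples were those of Btk and Plcg2, with a root mean square difference of 0.126 between centered log2(FPKM + 1) values. This measure is small where both genes vary little. Btk and Plcg2 had the smallest differences between the groups and the smallest preleukemic SDs of the 6 (0.0555 and 0.0552). Btk lay closer to Ranbp2 (0.0234) than to Plcg2. The profiles farthest apart were those of Pik3ap1 and Pik3cd, at 0.803.

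Of the receptor chains above the 6 genes, 2 of 6 passed the threshold as lower, against 6.26% of all genes tested. Estimates were below 0 for 6 of 6, against 52.1%. For 5 of 6, every leukemic sample was below every preleukemic one, against 17.1%. Igll1 measured 605, 934 and 373 FPKM in leukemic and 1390.2, 1377, 1574 and 1631 FPKM in preleukemic samples, which was lower (log2 fold change -1.32, SE 0.27, limma adjusted p = 0.0244), as was Vpreb1 (-1.50, SE 0.30, limma adjusted p = 0.0226). Neither passed when preleukemic sample 2, 3 or 4 was left out (Igll1 also without sample 1), with limma adjusted p up to 0.0812. Cd79a (-0.48, limma adjusted p = 0.0567), Cd79b (-0.44, 0.114), Vpreb2 (-2.74, 0.0712) and Vpreb3 (-0.81, 0.0555) did not pass, although without leukemic sample 2 limma gave adjusted p = 0.000751 for Vpreb2 (-3.97) and 0.0352 for Vpreb3. Relative to the mean log2 level of Cd79a and Cd79b, a measure added after the values were seen, the log2 ratio in leukemic minus preleukemic samples was -0.08 for Blnk, -0.51 for Syk, 0.31 for Btk, 0.38 for Plcg2, 0.05 for Pik3ap1 and -0.61 for Pik3cd. None of these 6 differences passed (smallest exact permutation p = 0.114, adjusted p = 0.286). The sign turned for Blnk without leukemic sample 3 (0.09) and for Pik3ap1 without leukemic sample 1 (-0.30), and without leukemic sample 1 Syk was at -0.20, Pik3cd at -0.38, Btk at 0.20 and Plcg2 at 0.22.

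Beyond the 6 genes and the receptor chains, 75 genes of the pathway were listed by role and 67 of them were tested. Of these, 5 were lower and 1 was higher past the threshold (8.96%, against 14.7% of all genes). Estimates were below 0 for 50 (74.6%, against 52.1%), with a median of -0.23. The lists, too, were chosen with earlier results of these data known. In limma, adaptors and co-receptors had 0 of 22 past the threshold (7 at an unadjusted p under 0.05) with a median of -0.23, kinases 0 of 9 (4 unadjusted) with -0.37, and lipase and second-messenger effectors 0 of 9 (2 unadjusted) with -0.07. PI3K subunits had 1 of 6, which was Pik3ca. The other 5 were all among the 21 inhibitors.

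Of the inhibitors, 4 were lower. Siglecg, an inhibitory receptor of B cells, measured 40.4, 48.6 and 57.4 FPKM in leukemic and 68.2, 94.0, 82.7 and 85.0 FPKM in preleukemic samples (log2 fold change -0.75, SE 0.15, limma adjusted p = 0.0218). Ptpn22, a phosphatase that acts on antigen receptor kinases, was at 7.21 ± 2.60 (SD, n = 3) against 15.8 ± 3.39 FPKM (SD, n = 4; -1.06, SE 0.25, limma adjusted p = 0.0331). Cblb, a ubiquitin ligase, was at 6.33 ± 0.908 against 9.89 ± 0.819 FPKM (-0.58, limma adjusted p = 0.0226), and Phlpp1, a phosphatase of AKT, was at 20.3 ± 2.58 against 30.4 ± 2.55 FPKM (-0.57, limma adjusted p = 0.0202). Lair1, an inhibitory receptor that myeloid cells also express, was higher, at 2.54 ± 0.714 against 0.963 ± 0.205 FPKM (0.84, limma adjusted p = 0.0389). Macrophage and neutrophil marker sums were higher in the same samples, and a link to Lair1 was not tested. The count of 6 (27 at an unadjusted p under 0.05) fell to 0 in limma without preleukemic sample 3 or 4 (21 and 20 unadjusted). It fell to 1 without preleukemic sample 2, and rose to 12 without leukemic sample 2 and 13 without leukemic sample 3. Calls over all genes tested fell as well, from 1553 to 443, 271 and 149 without preleukemic samples 2, 3 and 4. They were 1620 without leukemic sample 2 and 1402 without leukemic sample 3.

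Among the most highly expressed genes of these lists, none of those named here passed. Akt1, the kinase activated by PI3K lipids, was at -0.29 (SE 0.08, limma adjusted p = 0.0512, and -0.34 with 0.0465 without leukemic sample 2) and Prkcb, a diacylglycerol-dependent kinase, was at -0.62 (SE 0.28, limma adjusted p = 0.165, and -0.25 without leukemic sample 1). Pik3r1, the regulatory partner of p110δ, was at 0.21 (SE 0.09, limma adjusted p = 0.164), with all 3 leukemic samples above all preleukemic ones (20.7 to 25.9 against 18.8 to 20.2 FPKM). Csk, which holds Src-family kinases in check, was at 0.23 (SE 0.10, limma adjusted p = 0.169), Cd81, a partner of the B-cell co-receptor, at -0.19 (0.467), Rasgrp2, a guanine nucleotide exchange factor, at -0.10 (0.543), and Ptpn6, which encodes the phosphatase SHP-1, at -0.14 (0.412).

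**Figure D5:**
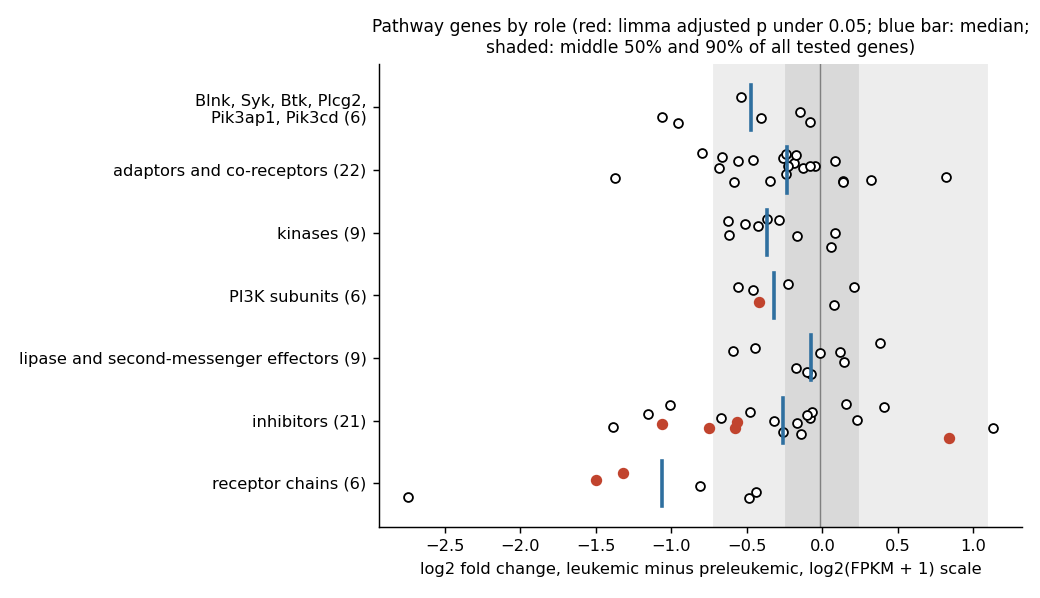
Log2 fold change (x axis, leukemic minus preleukemic, log2(FPKM + 1) scale) of the 6 genes, of the other pathway genes by role and of the receptor chains, with the number tested in parentheses. Red points passed limma's adjusted threshold, blue bars are medians, and the shading gives the middle 50% and 90% of all genes tested.

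Counted over the 6 genes and the 67 others together, 31 of 73 had their lowest value in leukemic sample 1 (42.5%, against 27.1% of all genes tested), 23 in leukemic sample 2 (31.5%, against 16.3%) and 6 in leukemic sample 3 (8.22%, against 14.9%). The highest value was in preleukemic sample 4 for 25 of 73 (34.2%, against 16.1% of all genes). These counts describe the samples, and genes are not independent replicates.

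Because gain of a whole chromosome can shift the genes it carries, each of the 6 genes was set against its surroundings. The other pathway genes were not. The median log2 fold change of the genes tested was between -0.07 and -0.04 on each of the chromosomes of the 6 genes (19, 13, X, 8 and 4), against -0.02 over all genes. A separate measure was taken per sample, for genes above a minimum mean level. It was the median deviation of a chromosome's genes from their mean over 7 samples, less the same median over all such genes. On chromosome 17 it was 0.202 to 0.239 in the leukemic samples and -0.218 to -0.0567 in the preleukemic samples. On chromosome 9 it was 0.224, 0.185 and -0.00601 in leukemic samples 1 to 3 and -0.153 to -0.0145 in preleukemic samples. On chromosome 14 it was 0.158 in leukemic sample 3, 0.128 in preleukemic sample 3 and -0.0949 to -0.0309 in the others. On chromosome 15 it was 0.175 in leukemic sample 3 and -0.0479 to -0.0123 in the others. On chromosomes 4, 8, 13, 19 and X it was between -0.0383 and 0.0396 in every sample. On chromosome 4, 1.86% of genes had a lower log2 fold change than Pik3cd, and on chromosome 13, 3.49% were lower than Syk. The 18 genes within 1 Mb of Pik3cd had a median of 0.18, and the 7 around Syk a median of 0.08. Blnk and Pik3ap1 are near neighbors on chromosome 19, where 10.0% and 15.1% of genes had lower values, and 35.8% and 44.9% were lower than Btk and Plcg2 on theirs.

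The genes whose profiles over the 7 samples were most like each of the 6 were found by the smallest root mean square difference of centered log2(FPKM + 1) values, among 7069 genes. Nearest to Blnk were Ncoa2 (0.109), Antxr2 (0.126) and Pold4 (0.148), and nearest to Syk were Ptgr1 (0.0866), Utrn (0.145) and Atp8a1 (0.146). For Btk they were Ranbp2 (0.0234), Ube2g1 (0.0240) and Ep400 (0.0281), and for Plcg2 they were Homer3 (0.0351), Stk26 (0.0567) and Malt1 (0.0581), the last of which encodes a protease further down the same pathway. For Pik3ap1 they were Ralgps2 (0.113), Cd180 (0.116) and Marcksl1 (0.146), and for Pik3cd they were Hint2 (0.124), Ptpn22 (0.138) and Smim24 (0.173). All of these values share libraries and scaling, and are given as a description.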

How the data were processed

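The labels gave each sample its group (disease state) and replicate number. Per the labels (the submitters' processing notes), the authors used STAR 2.5.0b, bedtools 2.17.0, Cufflinks 2.2.1, Bowtie and DESeq2 with mm10, and deposited 1 FPKM value per gene and sample, scaled to depth and transcript length, with no value below 0.01. The authors' methods describe DESeq2 on counts. FPKM is not a count, so limma 3.58.1 in R 4.3.3 was used on log2(FPKM + 1) with an intensity trend and no covariates, for the 10541 of 24341 genes with a sum of at least 10 over the 7 samples. p-values were adjusted by the method of Benjamini and Hochberg over all genes tested, with a threshold of 0.05. Exact permutation tests over the 35 ways to label 3 of 7 samples, promoter searches and figures used scipy 1.17.1, pandas 2.3.3, numpy 2.4.6 and matplotlib 3.10.9 under Python 3.11.15. The fit was tested on simulated data.

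The members and lists were chosen with earlier results of these data known. Genes named are the 6, their relatives of at least 1 FPKM on average, pathway genes past the threshold (at most 12), the 2 most highly expressed of each pathway list, receptor chains, and the 3 nearest profiles for each of the 6 among genes of at least 10 FPKM. The rule also covers up to 3 markers of each cell type, which are given as list sums, and 1 gene it covers is not reported here. Depth was read from the steps of low values in 2243 single-transcript genes of over 1500 bases. Between 314 and 427 such values were used per sample, and 76.4% to 80.4% of them lay within 0.15 of a whole fragment (30% by chance). The depth was the one with the best fit to these values, so 30% is too low a comparison for it. Depth covers counting error only. The labels do not tie replicates to individual mice, so p-values measure the spread between these samples. Alternatives tried were pseudocounts of 0.1 and 5, no filter on low values and a sum of at least 70, quantile normalization, median-ratio scaling, equal sums without marker genes, no intensity trend, robust variance estimation, each sample left out, and the replicate number as a block. Promoter sequences are from RefSeq (GRCm38.p6), where all 6 genes were found.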

Additional observations from a re-analysis of the deposited data

Results flagged for a closer look

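Of 32 named genes examined for a sample that stood far from the others in the preleukemic group of 4, 2 had one, and chance gives about 1 in 20. Lcp2, the relative of Blnk, had its lowest preleukemic FPKM in sample 2 (17.7 FPKM), where the other 3 preleukemic samples lay between 31.9 and 33.8 FPKM. The same sample held the lowest preleukemic Blnk (173 FPKM). Ptpn6 had its highest preleukemic FPKM in sample 4 (169.96 FPKM), where the next was 143 FPKM. The leukemic group of 3 is too small for this test.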

How the results depend on the processing

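With quantile normalization, 2 of the 6 genes were called (Blnk at -0.66, Pik3cd at -1.13), with 10 pathway genes, all lower. With equal sums without marker genes, 2 were called (Blnk at -0.66, Pik3cd at -1.19), with 21 pathway genes and 2486 genes in all against 1553. A filter at a sum of 70 left 951 called of 7069 tested. Leaving out each sample in turn gave -0.68 to -0.43 for Blnk, -1.28 to -0.54 for Syk, -0.20 to -0.10 for Btk, -0.22 to 0.089 for Plcg2, -0.63 to -0.08 for Pik3ap1 and -1.41 to -0.71 for Pik3cd. It gave 0 to 1 of the 6 genes, 0 to 13 pathway genes and 149 to 1620 genes called in all, the lowest without preleukemic sample 4. The cause of these changes was not tested.

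Among the other genes whose fold change is given, signs turned for 3 when 1 sample was left out, with ranges of -0.84 to 0.21 for Zap70, -0.32 to 0.047 for Cd81 and -0.20 to 0.031 for Rasgrp2. With quantile normalization the ratio to Cd79a and Cd79b was 0.55 for Btk and 0.60 for Plcg2 (exact permutation p = 0.0286 each, not adjusted), against 0.31 and 0.38 as deposited, and 0.11 for Blnk, whose sign turned. Leaving out 1 sample gave share differences of 1.597 to 5.08 percentage points for Blnk, 1.45 to 5.15 for Btk, 4.75 to 6.59 for Plcg2, -11.1 to -1.94 for Syk, -6.44 to 3.05 for Pik3ap1 and -13.7 to -6.40 for Pik3cd.

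Deviations of same-numbered samples of the groups had correlations of 0.0294, 0.0502 and -0.0925, inside the range of the other pairs (-0.113 to 0.112). Only leukemic sample 2 correlated best with its own number. With 3 and 4 samples per group, this check showed no pairing by number but cannot exclude one. With the replicate number as a block, which drops preleukemic sample 4, limma called 0 of 10541 genes (2429 at an unadjusted p under 0.05), 0 of 67 pathway genes (16 unadjusted) and 0 of the 6 (2 unadjusted). Blnk was then at -0.44, Syk at -0.86 and Pik3cd at -1.06 (limma adjusted p 0.293, 0.154 and 0.138).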
